A study of Rattus norvegicus with 36 samples.

Results

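The expression of 7 genes that supply the liver with NADPH was followed in rats given the halogenated flame retardant hexachlorocyclopentadienyl-dibromocyclooctane (HCDBCO). They were the malic enzyme gene Me1, the pentose phosphate pathway genes Pgls, Pgd, Rpia, Tkt and Taldo1, and the isocitrate dehydrogenase gene Idh1. Every probe set that the array annotation assigns to one of these genes alone was taken, which gave 10 probe sets of the 31042 tested, and 7 of 14217 named genes. Me1, Rpia and Idh1 have a pair of probe sets each, called here brighter and dimmer by their mean over all samples. Another 4 probe sets list Pgd together with other genes and were not used.

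Liver RNA came from 36 male Sprague Dawley rats' samples, measured on Affymetrix arrays in 6 groups of 6. The rats were 7 weeks old when dosing began. All of them were dosed by gavage with corn oil, in 5 ml per kg body weight, on 5 consecutive days, and the left liver lobe was taken 1 day after the last dose. The vehicle group had corn oil alone, and the others had HCDBCO in the oil at 541, 54.1, 5.41, 0.54 or 0.05 mg/kg per day. The design sets each dose against vehicle. The labels number the samples of a group but not the animals, so the p-values reflect how much these samples vary. Whole liver is a mixture of cells, so in these data fewer cells of a type and less RNA per cell cannot be told apart.

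NADPH is the reducing agent that cells spend on building fatty acids and sterols, on keeping glutathione and thioredoxin reduced, and on cytochrome P450 reactions. Cytosolic malic enzyme makes it by turning malate into pyruvate, and cytosolic isocitrate dehydrogenase by turning isocitrate into 2-oxoglutarate. The pentose phosphate pathway makes it in an oxidative branch, to which 6-phosphogluconolactonase (Pgls) and 6-phosphogluconate dehydrogenase (Pgd) belong, while a non-oxidative branch of ribose-5-phosphate isomerase (Rpia), transketolase (Tkt) and transaldolase (Taldo1) moves the sugar phosphates on. In rat liver, Me1 is known as a gene that responds to thyroid hormone and to a carbohydrate-rich diet.

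The promoters of Me1, Idh1 and Tkt are shown because Me1 and Tkt passed a test and the brighter Idh1 probe set was separate from vehicle at both high doses. The Idh1 difference itself passed at neither dose. Of all probe sets, 0.226% lay wholly above vehicle at 54.1 mg/kg and 0.393% at 541 mg/kg. Each sequence is the 250 bases before the start listed in RefSeq's table for assembly GRCr8, 5′ to 3′ on the gene's own strand. Capitals mark matches to TGACNNNGC, the core of the antioxidant response element, the sequence at which the stress regulator NRF2 is known to bind. Me1 lies at chr8:96540245-96540494 (minus strand), Idh1 at chr9:74049475-74049724 (minus strand) and Tkt at chr16:5729982-5730231 (plus strand).
Me1: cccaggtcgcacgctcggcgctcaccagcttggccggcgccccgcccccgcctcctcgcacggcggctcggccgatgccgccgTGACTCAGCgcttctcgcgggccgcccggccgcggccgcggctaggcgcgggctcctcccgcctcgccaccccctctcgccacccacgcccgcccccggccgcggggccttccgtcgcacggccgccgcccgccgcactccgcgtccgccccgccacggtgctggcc
Idh1: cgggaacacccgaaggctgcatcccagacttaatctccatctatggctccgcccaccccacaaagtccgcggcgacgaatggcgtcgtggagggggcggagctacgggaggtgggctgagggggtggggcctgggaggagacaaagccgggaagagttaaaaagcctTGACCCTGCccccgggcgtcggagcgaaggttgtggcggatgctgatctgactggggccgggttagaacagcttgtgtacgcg
Tkt: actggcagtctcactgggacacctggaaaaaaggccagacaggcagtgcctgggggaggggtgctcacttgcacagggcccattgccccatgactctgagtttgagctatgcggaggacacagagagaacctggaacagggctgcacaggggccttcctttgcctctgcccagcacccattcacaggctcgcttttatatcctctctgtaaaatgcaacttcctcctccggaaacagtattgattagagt

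Me1 held 1 match on its own strand, TGACTCAGC, which begins 167 bases before the start. Idh1 held 1, TGACCCTGC, beginning 83 bases before the start. The windows of Pgd, Rpia, Tkt and Taldo1 held none, and Pgls was not in the table. With both strands searched, 10.1% of the 33469 promoter windows of this length hold at least 1 such match. The E-box CACGTG, present in 5.59% of windows, was in none of the 6 windows read. The GC box GGGCGG, present in 30.5%, was in those of Me1 (5 matches, all on the opposite strand), Idh1 (2), Pgd (1) and Taldo1 (1). The Me1 window is 83.2% G and C, against 64% for Idh1 and 54.8% for Tkt. A match describes the letters only; binding was not measured.

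Me1 was higher at 54.1 and 541 mg/kg than in vehicle on both of its probe sets, and 3 of these 4 differences passed the false discovery rate (FDR) of 5% over all probe sets. Tkt was highest at 541 mg/kg and passed there against the 3 lowest doses, though not against vehicle. The 3 lowest doses were chosen as a reference with earlier results of these data known. Idh1 was slightly higher at both high doses without passing. Pgd, Pgls, Rpia and Taldo1 did not pass in any comparison.

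The brighter Me1 probe set (1370067_at) read 9.19, 8.78, 9.54, 9.23, 9.22 and 8.79 in vehicle replicates 1 to 6, on the log2 scale of the deposited values. At 54.1 mg/kg it read 9.7, 9.63, 9.62, 9.7, 9.68 and 9.54, and at 541 mg/kg 9.46, 9.75, 9.57, 9.55, 9.45 and 9.56. All 12 high-dose samples lay above the vehicle mean of 9.12, but vehicle replicate 3 reached into both groups: 5 of 6 samples at 54.1 mg/kg and 4 of 6 at 541 mg/kg lay above the highest vehicle sample. The 6 samples at 54.1 mg/kg lay close together, with an SD of 0.063 against 0.293 in vehicle. The mean rose by 0.52 ± 0.11 (limma's standard error, n = 6 per group), or 1.43-fold, at 54.1 mg/kg (95% interval 0.30 to 0.74, limma adjusted p = 0.0381). At 541 mg/kg it was 0.43 ± 0.11 or 1.35-fold higher (0.21 to 0.65) and did not pass (adjusted p = 0.0947).

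The dimmer Me1 probe set (1370870_at) read 8.69, 8.3, 9.02, 8.69, 8.87 and 8.21 in vehicle. At 54.1 mg/kg it read 9.64, 9.33, 9.42, 9.54, 9.21 and 9.1, and at 541 mg/kg 9.12, 9.39, 9.22, 9.3, 9.23 and 9.34. Every sample of both dose groups lay above every vehicle sample, which held for 0.226% of all probe sets at 54.1 mg/kg and 0.393% at 541 mg/kg, counting those that were higher. The mean rose by 0.75 ± 0.13 or 1.68-fold at 54.1 mg/kg (0.47 to 1.02, adjusted p = 0.0173), the fourth smallest p of all probe sets there. It rose by 0.64 ± 0.13 or 1.56-fold at 541 mg/kg (0.37 to 0.91, adjusted p = 0.028). Both comparisons use the same vehicle samples.

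**Figure D1:**
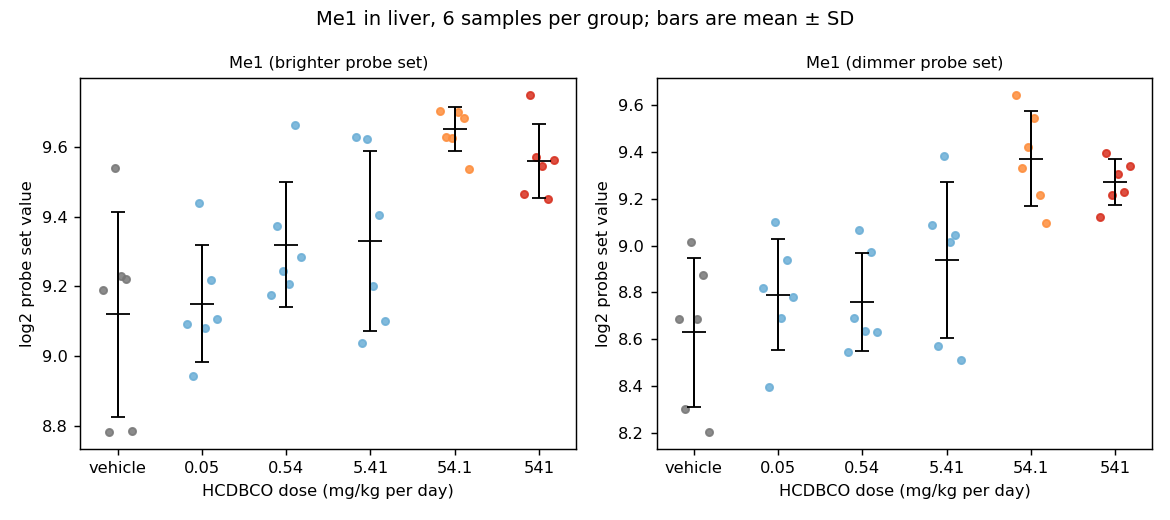
Log2 values of the brighter (left) and dimmer (right) Me1 probe set against HCDBCO dose, 1 point per sample; bars are the mean and SD of 6 samples. On the dimmer probe set all samples at 54.1 and 541 mg/kg lie above the highest vehicle sample, and on the brighter one vehicle replicate 3, at 9.54, overlaps both groups.

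Below 54.1 mg/kg no difference in Me1 passed. In the order 0.05, 0.54 and 5.41 mg/kg, the brighter probe set stood 0.02, 0.20 and 0.21 above vehicle and the dimmer one 0.16, 0.13 and 0.31 above. The last of these had an interval of 0.04 to 0.58 and an adjusted p of 0.977. At 5.41 mg/kg the samples were spread over much of the range seen in the whole study: the dimmer probe set read 9.09, 8.57, 9.38, 9.02, 9.05 and 8.51 there, and the brighter one 9.63, 9.04, 9.62, 9.2, 9.41 and 9.1. The group means of the brighter probe set ran 9.12 (vehicle), 9.15 (0.05 mg/kg), 9.32 (0.54), 9.33 (5.41), 9.56 (541) and 9.65 (54.1), and those of the dimmer one 8.63 (vehicle), 8.76 (0.54), 8.79 (0.05), 8.94 (5.41), 9.27 (541) and 9.37 (54.1). Neighbouring means in these orders differed by less than the larger SD of the pair, the closest being 0.33 between 5.41 and 541 mg/kg on the dimmer probe set, where that SD was 0.332. The highest dose did not exceed the one below it: 541 minus 54.1 mg/kg was -0.09 (-0.31 to 0.13) on the brighter and -0.11 (-0.38 to 0.16) on the dimmer probe set.

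The trend across the ordered doses, scored from 0 for vehicle to 5 for 541 mg/kg, rose by 0.10 ± 0.02 per step on the brighter probe set (limma adjusted p = 0.00212) and by 0.15 ± 0.02 on the dimmer one (adjusted p = 0.000395). Limma's F-test over the 6 group means gave adjusted p = 0.0109 for the dimmer and 0.0524 for the brighter probe set. Set against the 18 samples of the 3 lowest doses, which leaves vehicle out, the dimmer probe set was 0.55 ± 0.11 higher at 54.1 mg/kg (adjusted p = 0.0655) and 0.44 ± 0.11 higher at 541 mg/kg (adjusted p = 0.0738). The brighter one was 0.38 and 0.29 higher (adjusted p = 0.207 and 0.231). None of these 4 differences passed.

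The calls against vehicle changed when single samples were left out. Leaving out 1 sample of the groups compared at a time, the dimmer probe set passed at 54.1 mg/kg in 11 of 12 fits, failing without 54.1 mg/kg replicate 4 (adjusted p = 0.0561). At 541 mg/kg it passed in 2 of 12, without vehicle replicate 3 or 5, and adjusted p reached 0.0968 without vehicle replicate 6. The brighter probe set passed at 54.1 mg/kg in 2 of 12 fits, without vehicle replicate 3 or 54.1 mg/kg replicate 6, and reached 0.131 without vehicle replicate 6. At 541 mg/kg it passed once, without vehicle replicate 3 (adjusted p = 0.0231). The differences themselves moved little, from 0.66 to 0.82 and 0.55 to 0.72 on the dimmer and from 0.45 to 0.60 and 0.36 to 0.52 on the brighter probe set, at 54.1 and 541 mg/kg. The trend passed on both probe sets in all 36 fits that left out 1 sample.

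The dimmer probe set gave the larger response. Its difference from vehicle exceeded that of the brighter one by 0.22 at 54.1 mg/kg (exact permutation p = 0.0152, adjusted p = 0.038 over 5 doses, two-sided) and by 0.21 at 541 mg/kg (exact permutation p = 0.00649, adjusted p = 0.0324). At 0.05, 0.54 and 5.41 mg/kg the excess was 0.14, -0.07 and 0.10 (exact permutation adjusted p = 0.0613, 0.461 and 0.274). Both probe sets nevertheless ranked the samples within a group alike. With group means subtracted, they correlated with Pearson's r = 0.83 and Spearman's rho = 0.80 across 36 samples. Permutation within groups gave p = 1e-05 for each, the smallest the 100000 permutations can give (adjusted p = 9e-05 over 9 relations). Without the 2 samples farthest from the median, vehicle replicate 3 and 0.54 mg/kg replicate 5, r was 0.82.

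Of the oxidative branch, Pgd, whose enzyme releases NADPH while making ribulose 5-phosphate, was a little higher at the top doses without passing. It ran from 8.72 through a median of 8.93 to 9.23 in vehicle, from 9 through 9.16 to 9.25 at 54.1 mg/kg, and from 8.89 through 9.05 to 9.33 at 541 mg/kg. All 6 samples at 54.1 mg/kg lay above the vehicle mean and 1 above the highest vehicle sample. The difference was 0.20 ± 0.09 at 54.1 mg/kg (0.02 to 0.39, limma adjusted p = 0.491) and 0.15 ± 0.09 at 541 mg/kg (-0.04 to 0.33, adjusted p = 0.674). At 0.05, 0.54 and 5.41 mg/kg it was -0.01, 0.10 and 0.00. Pgls, whose enzyme opens the lactone one step earlier, stood at -0.07 ± 0.06 (54.1 mg/kg, adjusted p = 0.793) and -0.04 ± 0.06 (541 mg/kg, adjusted p = 0.901). Its samples ran from 8.82 to 9.05 in vehicle, 8.79 to 8.93 at 54.1 mg/kg and 8.76 to 9.08 at 541 mg/kg. At the other doses Pgls was within 0.05 of vehicle.

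Of the non-oxidative branch, Tkt, whose enzyme passes carbon pairs between sugar phosphates, had its highest mean at the top dose. It ran from 10.69 through a median of 10.78 to 10.91 in vehicle, from 10.73 through 10.88 to 11.01 at 54.1 mg/kg, and from 10.89 through 10.98 to 11.08 at 541 mg/kg. All 6 samples at 541 mg/kg lay above the vehicle mean and 4 above the highest vehicle sample, so the groups overlapped. Against vehicle the difference at 541 mg/kg was 0.18 ± 0.06 or 1.13-fold (0.07 to 0.30, limma adjusted p = 0.219), and at 54.1 mg/kg 0.09 ± 0.06 (adjusted p = 0.679). Against the 3 lowest doses, whose means were 10.72, 10.78 and 10.76, Tkt rose by 0.22 ± 0.05 or 1.16-fold at 541 mg/kg (0.12 to 0.31, adjusted p = 0.0235). That call held in 21 of 24 fits that left out 1 sample and failed without 541 mg/kg replicate 1, 3 or 6 (adjusted p = 0.0912, 0.0682 and 0.125). The trend over dose order, 0.04 ± 0.01 per step, passed as well (adjusted p = 0.042), but in 17 of 36 such fits (range 0.0263 to 0.0879). The 541 minus 54.1 mg/kg difference was 0.10 (-0.02 to 0.21, adjusted p = 0.999).

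Taldo1, whose enzyme moves a dihydroxyacetone unit between sugar phosphates, differed from vehicle by 0.00, 0.04, -0.04, 0.03 and 0.04 in order of dose, and did not pass at any. Its samples ran from 10.42 to 10.53 in vehicle and 10.40 to 10.56 at 541 mg/kg, a difference of 0.04 with an interval of -0.06 to 0.14 (limma adjusted p = 0.849). Rpia, whose enzyme interconverts ribulose and ribose 5-phosphate, gave opposite signs on its probe sets. The brighter (1376559_at) was 0.12 ± 0.08 higher at 54.1 mg/kg and 0.16 ± 0.08 higher at 541 mg/kg (adjusted p = 0.669 and 0.513), and already 0.20 higher at 0.54 and at 5.41 mg/kg (adjusted p = 0.999 and 0.977). The dimmer (1389468_at) stood at -0.16 ± 0.11 and -0.07 ± 0.11 (adjusted p = 0.698 and 0.906). Neither passed at any dose, and no direction can be given for Rpia.

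**Figure D2:**
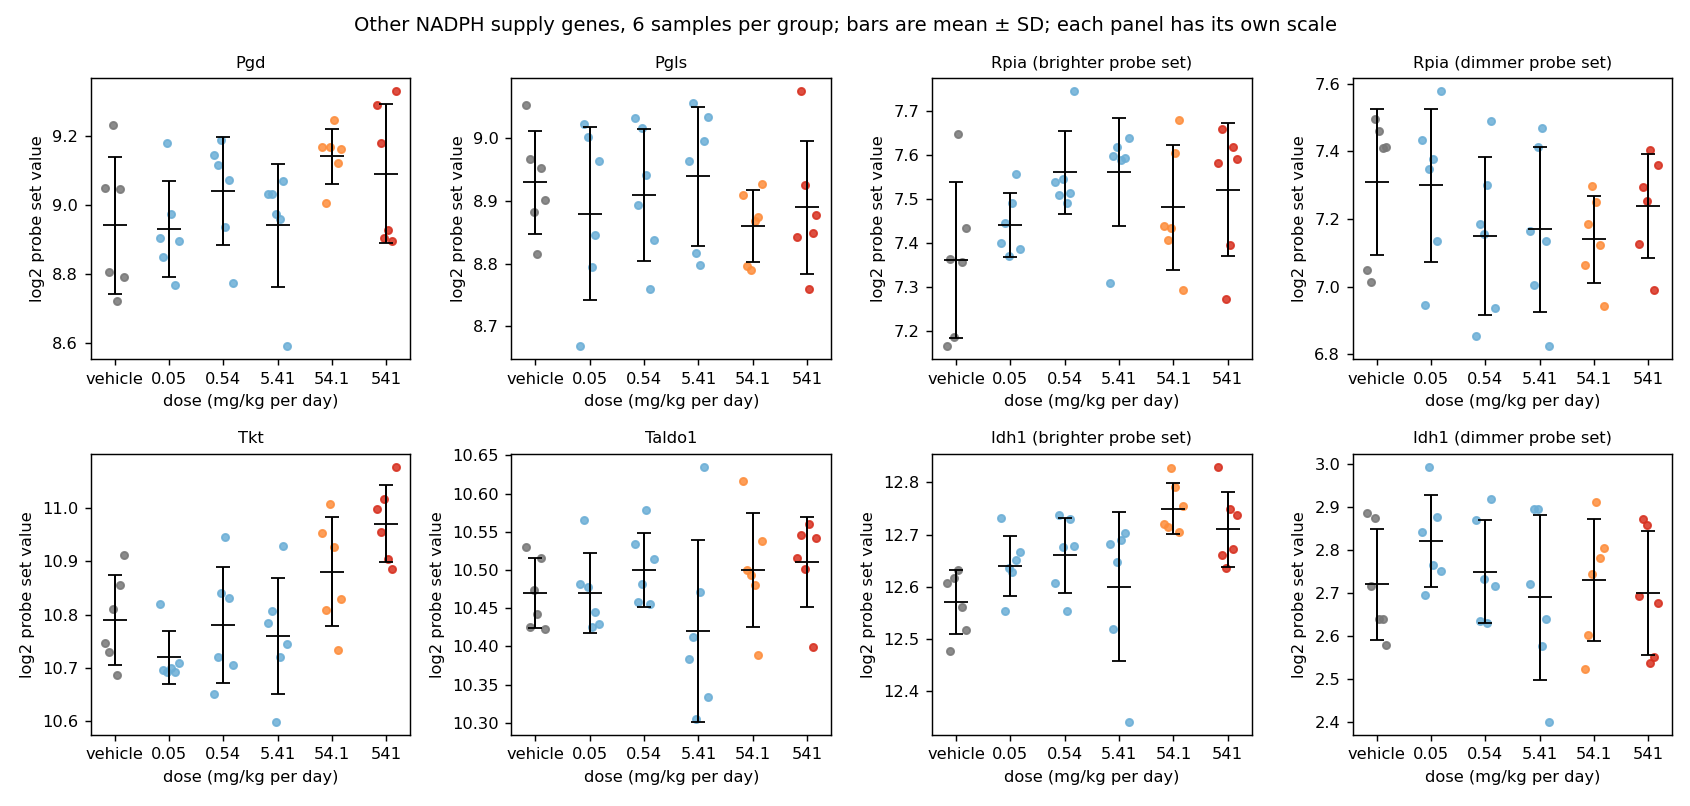
Log2 values of the other 8 probe sets against dose, 1 point per sample, with the mean and SD of 6 samples per group; each panel has its own scale. Tkt is highest at 541 mg/kg (mean 10.97 against 10.79 in vehicle), the brighter Idh1 probe set lies above all vehicle samples at 54.1 and 541 mg/kg, and the other panels overlap at every dose. Of all probe sets, 0.226% and 0.393% lay above all vehicle samples at these doses, and neither Idh1 difference passed.

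Idh1 differed between its probe sets. The brighter (1369954_at) ran from 12.48 through a median of 12.58 to 12.63 in vehicle, from 12.71 through 12.74 to 12.83 at 54.1 mg/kg and from 12.64 through 12.70 to 12.83 at 541 mg/kg. The samples of both high doses lay above all 6 vehicle samples, as for the dimmer Me1 probe set. This held for 0.226% of all probe sets at 54.1 mg/kg and 0.393% at 541 mg/kg. The difference was nevertheless small, 0.18 ± 0.05 or 1.14-fold at 54.1 mg/kg (0.08 to 0.29, limma adjusted p = 0.206) and 0.15 ± 0.05 or 1.11-fold at 541 mg/kg (0.04 to 0.25, adjusted p = 0.332), and did not pass. The 3 lowest doses stood 0.08, 0.09 and 0.03 above vehicle, and in each of them 4 of 6 samples lay above the highest vehicle sample. Against their 18 samples the difference was 0.12 at 54.1 mg/kg and 0.08 at 541 mg/kg (adjusted p = 0.645 and 0.675). The dimmer Idh1 probe set (1394886_at) was at the low end of the array, with a mean of 2.73 at the 5.14th percentile of all probe set means. Its differences were 0.01 and -0.02 at 54.1 and 541 mg/kg.

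The 7 genes were chosen with earlier results of these data known. Their counts, set against all probe sets, are therefore not an independent test. In counts, 2 of the 10 probe sets, both of Me1, passed the FDR of 5% at 54.1 mg/kg, where 0.0741% of all probe sets passed (0.0419% as higher). At 541 mg/kg it was 1 of 10, the dimmer one of Me1, where 0.155% of all passed (0.116% as higher). The median difference of the 10 was 0.102 at 54.1 mg/kg and 0.146 at 541 mg/kg, against 0.01 and 0.008 over all probe sets. Means were higher than in vehicle for 8 and 7 of the 10, against 54.1% and 53.3% of all probe sets. At an unadjusted p under 0.05 there were 4 and 5 of the 10, against 9.2% and 9.07% of all. Both Me1 probe sets are in each of these counts. A filter on dim probe sets kept 9 of the 10 but 15906 of all 31042, so these shares do not compare probe sets of like signal.

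At the 3 lowest doses 0 of the 10, and 0% of all probe sets, passed in limma. Unadjusted p was under 0.05 for 2 of the 10 at 5.41 mg/kg (4.83% of all), 1 at 0.54 mg/kg (4.18%) and 0 at 0.05 mg/kg (3.02%). The trend was called for 3 of the 10, both Me1 probe sets and Tkt, against 0.715% of all, and the F-test for 1, the dimmer of Me1, against 0.0999%. Against the 3 lowest doses Tkt was the 1 call at 541 mg/kg (0.271% of all) and 0 of 10 passed at 54.1 mg/kg (0.0161% of all), where 5 of the 10, and 6.08% of all, had an unadjusted p under 0.05. Both Me1 probe sets are among these 5. Between 541 and 54.1 mg/kg 0 of 10 passed in limma (0.00322% of all), and 0 had an unadjusted p under 0.05 (4.76% of all).

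**Figure D3:**
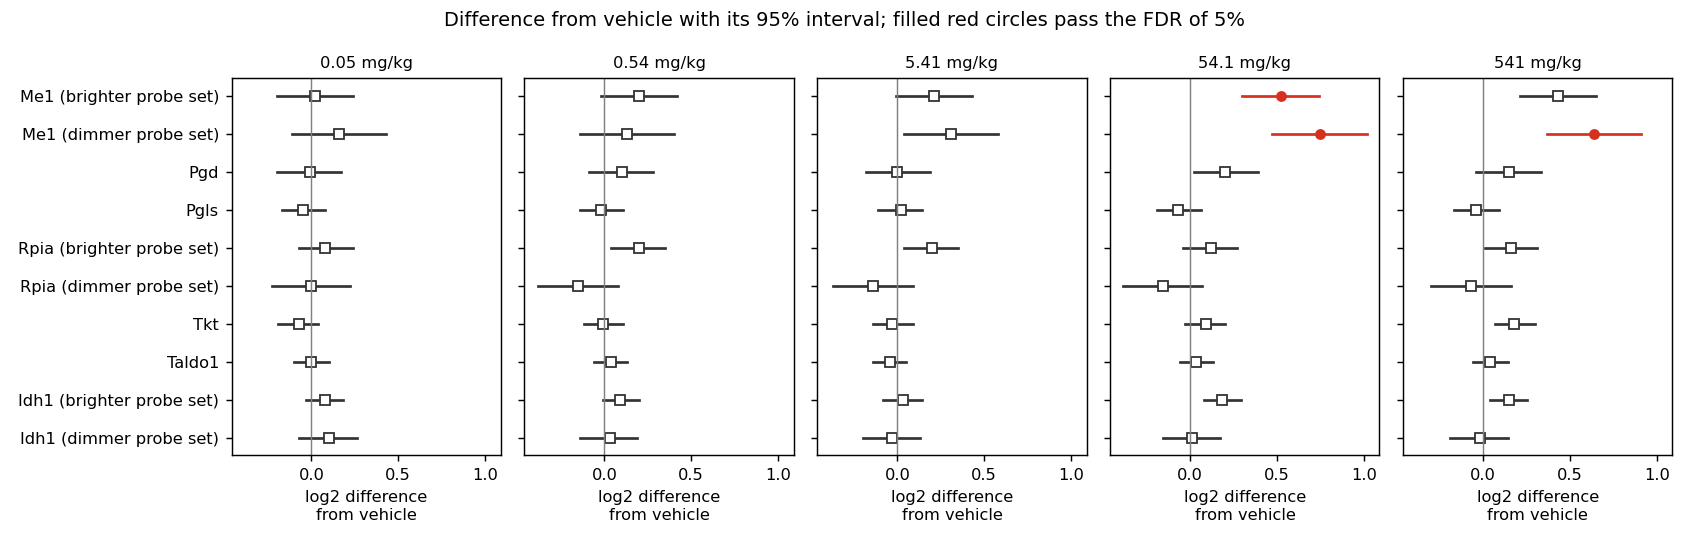
Log2 difference from vehicle with limma's 95% interval for the 10 probe sets, 1 panel per dose. Filled red circles pass the FDR of 5%: both Me1 probe sets at 54.1 mg/kg and the dimmer one at 541 mg/kg.

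The array of 54.1 mg/kg replicate 5 had a narrower distribution than the 35 others: its lower quartile was 3.79, where theirs ran from 3.62 to 3.72, and its upper quartile 6.94, where theirs ran from 7.03 to 7.13. Without it the difference at 54.1 mg/kg was 0.78 for the dimmer Me1 probe set (limma adjusted p = 0.0166) and 0.51 for the brighter one, which no longer passed (adjusted p = 0.0584). The labelled tissue had its hepatocyte markers, with albumin (Alb) at 14.71 in vehicle. Over the 12 of 13 measured, the mean log2 value per sample ran from 13.29 to 13.46 in vehicle, 13.26 to 13.34 at 54.1 mg/kg and 13.21 to 13.29 at 541 mg/kg. All 7 measured sinusoidal endothelial markers (of 9 listed) had lower means than vehicle at 541 mg/kg, with summed unlogged values per sample of 2897 to 3324 against 3006 to 4040. At 54.1 mg/kg, 5 of the 7 had higher means. No marker of these or 8 other cell type lists passed the FDR at either dose. The part of these shifts in the results was not tested.

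Within groups, the Me1 values of samples were set against those of the other genes. With group means subtracted, the brighter Me1 probe set correlated across 36 samples with the brighter Idh1 probe set at r = 0.48 (permutation p = 0.0113, adjusted p = 0.0304) and rho = 0.47 (p = 0.0115, adjusted p = 0.0518), and r was 0.46 without the 2 samples farthest from the Me1 median. With Pgd it was r = 0.44 (permutation p = 0.0226, adjusted p = 0.0407) and rho = 0.36 (p = 0.0526, adjusted p = 0.0947), with r = 0.36 without those samples. The dimmer Rpia probe set gave r = 0.48 (permutation adjusted p = 0.0304) and rho = 0.38 (adjusted p = 0.0947), and r = 0.39 without them. The dimmer Idh1 probe set, which the filter on dim probe sets leaves out, gave r = 0.45 (permutation adjusted p = 0.0304) and rho = 0.39 (adjusted p = 0.0852), and r = 0.37 without them; at its low signal this value supports nothing. By rank none of these 4 relations passed after adjustment over the 9 computed. Tkt (r = -0.07), Taldo1 (-0.01), Pgls (-0.17) and the brighter Rpia probe set (-0.20) did not pass (permutation adjusted p from 0.456 to 0.948).

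The genes most like the brighter Me1 probe set, by Pearson's r over 36 samples with group means subtracted, among 14216 genes, were Dbi (0.70), which encodes an acyl-CoA binding protein, Apex1 (0.66), a DNA repair endonuclease, Tsx (0.65), Slc38a5 (0.64), an amino acid transporter, and Fdps (0.64), the farnesyl diphosphate synthase of the sterol pathway. With group means kept, so that differences between doses add to the likeness, they were Fasn (0.73), the fatty acid synthase, Fdps (0.72), the glutathione transferases Gsta1 (0.67) and Gsta3 (0.67), and Ephx1 (0.67), the microsomal epoxide hydrolase. Of these 9 genes Gsta3 (1.34, limma adjusted p = 0.0263) and Ephx1 (0.52, adjusted p = 0.0152) rose at 541 mg/kg, where 0.239% of all genes passed. None passed at 54.1 mg/kg, where 0.12% of all genes did. Gsta3 and Ephx1 came from the ranking with group means kept, so a rise at the high doses helped to place them there. Fasn stood at 0.40 and 0.23 at 54.1 and 541 mg/kg (adjusted p = 0.261 and 0.607).

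Around these 7 genes, 5 lists on the making and spending of NADPH were drawn up, also with earlier results of these data known. They held 72 measured genes, taken with 1 probe set per gene. Of them, 3 passed at 541 mg/kg, where 0.239% of all 14217 genes passed (0.19% as higher, 0.0492% as lower), and 0 at 54.1 mg/kg, where 0.12% passed. A list of other NADPH-producing enzymes, related enzymes and NAD kinases held 14 genes, all measured. Of these, 1 fell and 0 rose at 541 mg/kg, and 0 passed at 54.1 mg/kg. The median was 0.01 at 541 mg/kg, as over all genes. The fall was in Glud1, the mitochondrial glutamate dehydrogenase, at 12.85 ± 0.08 in vehicle and 12.60 ± 0.08 (SD, n = 6) at 541 mg/kg, a difference of -0.25 ± 0.05 (limma adjusted p = 0.0122). At 54.1 mg/kg it stood at -0.22 (adjusted p = 0.0535), while its dimmer probe set fell by 0.26 there (adjusted p = 0.0323) and stood at -0.23 at 541 mg/kg (adjusted p = 0.0534). The call at 541 mg/kg failed without 541 mg/kg replicate 4 (adjusted p = 0.0614) and with only these 2 groups fitted (adjusted p = 0.144). The relatives of the 7 genes in this list included Idh2 (0.04), Me2 (-0.08), Me3 (0.08) and H6pd (0.14) at 541 mg/kg, which did not pass (adjusted p = 0.919, 0.828, 0.909 and 0.693).

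Of 12 measured sugar phosphate neighbours of the pentose phosphate pathway (16 listed), 0 passed at either dose. The smallest p-values at 541 mg/kg belonged to ribokinase, Rbks (0.14, limma adjusted p = 0.41), and ribulose-phosphate 3-epimerase, Rpe (-0.15, adjusted p = 0.414). Of 12 measured genes of citrate and malate traffic around malic enzyme (13 listed), 0 passed at either dose. Cytosolic aconitase, Aco1, stood at 0.15 and 0.17 at 54.1 and 541 mg/kg and pyruvate carboxylase, Pc, at -0.27 and -0.29 (adjusted p from 0.468 to 0.537 for these 4 values). At 54.1 mg/kg the smallest p of the list belonged to ATP citrate lyase, Acly, at 0.38 (adjusted p = 0.231), which stood at 0.13 at 541 mg/kg (adjusted p = 0.791). The medians of these lists were 0.06 and 0.00 at 541 mg/kg.

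Of 16 measured genes of fatty acid and sterol synthesis and their regulators (18 listed), large users of NADPH, 0 passed at either dose, with medians of 0.09 at 54.1 mg/kg and 0.00 at 541 mg/kg. Means were higher than in vehicle for 11 of the 16 at 54.1 mg/kg, Fasn (0.40), Elovl6 (0.35) and Fads2 (0.31) among them, and for 8 at 541 mg/kg, against 53.6% and 53.4% of all genes. The smallest p at 54.1 mg/kg belonged to the liver pyruvate kinase Pklr, at -0.40 (limma adjusted p = 0.153). Scd, the stearoyl-CoA desaturase, stood at -1.15 and -1.11 ± 0.39 (limma adjusted p = 0.327 and 0.315), with a wide spread at 541 mg/kg, from 8.29 to 11.30 against 10.22 to 11.03 in vehicle. The fatty acid elongase Elovl5 stood at -0.16 at 541 mg/kg (adjusted p = 0.317), or -0.38 on its dimmer probe set (adjusted p = 0.256). Of 18 measured genes of redox and detoxification that use NADPH, and their regulators, 2 rose and 0 fell at 541 mg/kg. Of all genes, 0.19% passed as higher at that dose. None of the 18 passed at 54.1 mg/kg, against 0.12% of all genes. Means were higher at 541 mg/kg for 14 of 18 (53.4% of all genes), with a median of 0.14 against 0.01 over all genes. Blvrb, the NADPH-dependent biliverdin and flavin reductase, rose from 10.03 ± 0.10 to 10.41 ± 0.13 (SD, n = 6), by 0.37 ± 0.06 (adjusted p = 0.00102), in all 12 fits that left out 1 sample but not with only these 2 groups fitted (adjusted p = 0.0663). Akr7a3, an aldehyde reductase, rose by 0.81 ± 0.17 (adjusted p = 0.028), in 5 of 12 such fits. At 54.1 mg/kg they stood at 0.24 and 0.40 (adjusted p = 0.105 and 0.452).

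**Figure D4:**
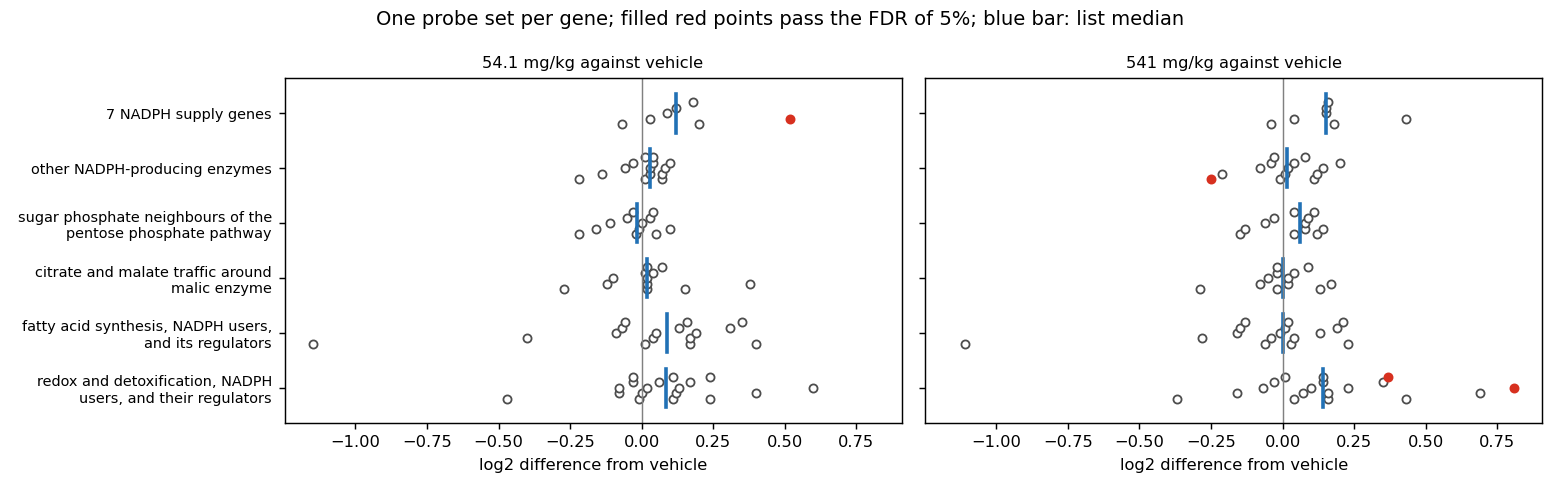
Log2 difference from vehicle at 54.1 (left) and 541 mg/kg (right), 1 point per gene on its brightest probe set, for the 7 NADPH supply genes and 5 lists of related genes. Filled red points pass the FDR of 5% and blue bars are list medians; Me1 at 54.1 mg/kg and Glud1, Blvrb and Akr7a3 at 541 mg/kg are filled.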

How the data were processed

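Liver RNA of 36 samples was measured on Affymetrix arrays, 1 array per sample. The values were deposited by the authors as log2 values, 1 per probe set; the submitters' processing notes name RMA (background correction, normalisation across arrays and summary of probes) and the affy package, with versions not given in the sources used here. The log base was taken from RMA's usual output and was not checked against raw intensities. Values ran from 1.94 to 14.7 and array medians from 5.06 to 5.16.

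Of 31099 probe sets, 57 controls were left out. Gene names came from the array's annotation: 20826 probe sets had 1 symbol, 436 several and 9780 none. A one-way design with 6 group means over all 36 samples was fitted in R 4.3.3 by limma 3.58.1, two-sided, with Benjamini-Hochberg adjustment over 31042 probe sets at an FDR of 5%; every adjusted p for a probe set is from limma. The design text names another R package, which was not used here. The members and lists were chosen with earlier results of these data known. Beside the 7 genes, the rule named list members past the FDR at 54.1 or 541 mg/kg, otherwise the 2 with the smallest p at 541 mg/kg, and the 5 genes most like Me1; other names were chosen after their values were seen. The fit was run on simulated data with independent normal noise for each probe set. That run does not cover noise shared between probe sets or samples, and its outcome is not used here. The labels do not say that replicate numbers pair samples. On deviations from group means, same-numbered pairs correlated at 0.0165 on average (-0.287 to 0.282), others at -0.00328. The correlation was above 0.1 in 28 of 90 same-numbered pairs and 97 of 450 others. Such averages over all genes cannot show that pairing is absent. The number of arrays limits the precision. Alternatives were a replicate block, median centring, quantile normalisation, a filter on dim probe sets, array weights, limma's trend and robust settings, fits of only 2 groups, and leaving out each sample.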

Additional observations from a re-analysis of the deposited data

Results flagged for a closer look

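In 5 of the 60 sets of 6 samples (10 probe sets in 6 groups), 1 sample lay far from the other 5 by Dixon's test; chance gives about 1 in 20, or 5%. Pgd read 8.59 in 5.41 mg/kg replicate 6, against 8.96 to 9.07 in the others. The brighter Rpia probe set read 7.74 in 0.54 mg/kg replicate 6, against 7.49 to 7.54, and 7.31 in 5.41 mg/kg replicate 1, against 7.59 to 7.64. Tkt read 10.82 in 0.05 mg/kg replicate 1, against 10.69 to 10.71. Taldo1 read 10.4 in 541 mg/kg replicate 5, against 10.5 to 10.56. No such sample was found for either probe set of Me1 or Idh1.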

How the results depend on the processing

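Of 1737 values recomputed for the 10 probe sets and the genes named from the lists, 1628 kept their direction and their side of the FDR. The count of the 10 probe sets passing at 541 mg/kg went from 1 to 0 with only 2 groups fitted, and at 54.1 mg/kg from 2 to 1 with only 2 groups or with arrays centred on their medians. Against the 3 lowest doses it became 2 at 541 mg/kg with the replicate block or the filter on dim probe sets, and 1 at 54.1 mg/kg with the block, quantile normalisation, the filter or array weights. The F-test gave 2 with the block, quantile normalisation, the filter, array weights or the trend and robust settings. Leaving out 1 sample gave 0 to 2 at 541 mg/kg, 0 to 2 at 54.1 mg/kg, 2 to 3 for the trend, 0 to 2 and 0 to 1 against the 3 lowest doses, and 1 to 2 for the F-test.

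The block lowered the adjusted p of the dimmer Me1 probe set to 0.00425 at 541 mg/kg and 0.00354 at 54.1 mg/kg. Against the 3 lowest doses it became 0.0191 and 0.0061 at these doses. Whether the replicate numbers pair samples is not known from the labels. For Tkt's trend the call was lost with the block (0.0677) and with centring (0.0852). Signs turned for values near 0. At 541 mg/kg against the 3 lowest doses, the brighter Rpia probe set, at 0.001, went to -0.002 with array weights and ran from -0.027 to 0.05 without 1 sample, the dimmer one from -0.003 to 0.079 and Pgls from -0.063 to 0.001. The dimmer Idh1 probe set at 54.1 mg/kg, at 0.005, went to -0.008 with centring and -0.009 with quantile normalisation; without 1 sample it ran from -0.031 to 0.046, from -0.062 to 0.016 against the 3 lowest doses, and from -0.059 to 0.008 at 541 mg/kg. The causes were not tested. The filter kept 15906 probe sets and 9 of the 10, leaving out the dimmer Idh1 probe set.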
